A study of Drosophila melanogaster with 12 samples.

Results

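Small RNAs bound to Aub and to Piwi in ovaries of krimp mutant Drosophila melanogaster were compared, with 1 library of each protein out of the 12 libraries of the series. The question that the design addresses is how the loss of Krimper, a germline Tudor domain protein, affects the piRNA pathway. Each protein was immunopurified from adult ovaries with its own antibody, and the bound RNA was size-selected and sequenced. The same measurements in the Aub and Piwi libraries of krimp heterozygous ovaries, which the labels call control and which still carry 1 mutant copy, are given beside those of the mutant. The labels do not give the krimp alleles or the age of the flies. The labels of the mutant Aub library disagree: its title and genotype give mutant, which was followed here, and its source name adds control.

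piRNAs guide proteins of the Piwi family to transposon RNA. In the ovary Piwi is a nuclear protein of germ cells and of the somatic cells around them, while Aub and its partner AGO3 are cytoplasmic proteins of germ cells. Aub and AGO3 cut transposon RNA, and the cut makes the 5′ end of a new piRNA 10 nt from the 5′ end of its guide, a cycle known as ping-pong. A guide that begins with U (1U) therefore gives a partner with A at position 10 (10A). Piwi receives most of its piRNAs from cuts along a transcript that continue after such a first cut, or from precursors in the soma, and these tend to begin with U. In a whole ovary fewer cells of a type and less RNA per cell cannot be told apart.

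The sequences compared were 23 to 29 nt long and shared no run of 15 nt with 2S rRNA, a ribosomal RNA of flies that is about as long as a piRNA and was abundant in both libraries. It is shown because its removal sets what is left to compare:
2S rRNA: TgcttggacTacatatggttgagggttgta
The sequence is written 5′ to 3′ with T for U as in the deposited data, and the capitals mark positions 1 and 10. The intact sequence had 2433213 reads in the mutant Aub library and 3311768 in the mutant Piwi library. With its fragments, 2S rRNA made up 53.8% of listed Aub reads and 24.5% of listed Piwi reads in the mutant. Genes of 2S rRNA are annotated on chromosomes X and Y in the gene table used. No other sequence is printed, because the piRNAs were not placed on chromosomes here.

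After the removal, 3124 distinct sequences with 2400019 reads were kept for Aub and 29648 with 11468371 reads for Piwi. Only sequences with at least 100 reads were deposited, so a sequence that is not listed may have had up to 99 reads, and these sums are not library depths. The 100 reads correspond to 0.00417% of kept Aub reads and to 0.000872% of kept Piwi reads, so the Piwi list reaches 4.78-fold lower in share. Sequences that begin with the same 20 nt were joined into a 5′ end, which gave 1697 ends for Aub and 21706 for Piwi. With a single library for each protein and genotype, the spread between replicates is unknown and nothing was tested. Intervals are exact Clopper-Pearson 95% intervals and cover counting error only, since reads without molecular identifiers are not independent molecules.

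The Aub reads were concentrated on few 5′ ends. The 10 most abundant ends held 35.1% of kept Aub reads and 2.25% of kept Piwi reads. As few as 28 ends were enough to hold 50% of the Aub reads, against 1988 ends for Piwi. In heterozygous ovaries 101 Aub ends and 3434 Piwi ends held that share. These values include the rRNA and tRNA families described next, and were not computed without them. Of the 10 leading ends 6 in Aub and 5 in Piwi lay outside those families, and the first Aub end, a 5S rRNA fragment, held 13.6%. The Aub list also stops at a higher share than the Piwi list, so more of its rare sequences are missing.

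Fragments of other structural RNAs made up more of the Aub reads than of the Piwi reads. These families were recognised from general knowledge among the leading ends, without a match to a reference. They were grown in repeated steps to sequences that share 15 nt with them or with a sequence already added. They held 26.1% of kept Aub reads and 3.74% of kept Piwi reads. 5S rRNA alone was 14.2% of Aub and 1.02% of Piwi reads, and tRNA fragments were 9.54% and 2.58%. In heterozygous ovaries all families together were 1.51% of Aub and 0.879% of Piwi reads. The 5S rRNA fragments differed as well, with 11 ends in common of 28 in Aub and 56 in Piwi. A single end held 96.3% of the Aub 5S reads, whereas the leading Piwi end held 27.8%. U stood at position 1 in 0.344% of Aub 5S reads and in 71.6% of Piwi 5S reads. Values without these families are given beside the results on bases, lengths and sharing, and whether other structural RNAs remain was not tested.

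Bases at positions 1 and 10 separated the libraries. U at position 1 was found in 51.7% of Aub reads (95% interval 51.6 to 51.7) and 81.2% of Piwi reads. A at position 10 was found in 60.5% of Aub reads (60.4 to 60.6) and 28.3% of Piwi reads. Without the rRNA and tRNA families the 10A shares were 81.3% for Aub and 28.9% for Piwi, and the 1U shares 63.3% and 82.2%. The 10A difference between Aub and Piwi was thus 52.4 percentage points without these families and 32.2 with them.

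Counting each 5′ end equally takes out the weight of the most abundant ends. By this count 10A was at 63.1% of Aub ends (60.7 to 65.4) and 28.3% of Piwi ends, and 1U at 61.6% of Aub ends (59.2 to 63.9) and 74.5% of Piwi ends. The largest class of Aub ends carried both 1U and 10A, at 40.1%, against 20.6% of Piwi ends. The largest class of Piwi ends carried 1U without 10A, at 53.9%, against 21.4% of Aub ends. Ends with 10A but without 1U were 22.9% of Aub and 7.75% of Piwi ends.

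The joint pattern differed from that of heterozygous ovaries mainly on the Aub side. There 10A without 1U was at 15.6% of Aub ends and 6.31% of Piwi ends, and 1U without 10A at 45.8% of Aub ends and 56.4% of Piwi ends. Among ends that begin with U, 10A was at 65.2% for Aub and 27.6% for Piwi in the mutant. In the heterozygote these values were 35.7% for Aub and 27.4% for Piwi. The difference between the genotypes rests on single libraries and was not tested.

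Aub reads were shorter than Piwi reads. They averaged 25.44 nt for Aub and 26.33 nt for Piwi in the mutant (SD over reads 1.36 and 1.34 nt), a difference of -0.89 nt, and the most common lengths were 25 and 26 nt. Reads of 23 and 24 nt were 5.34% and 19.4% of Aub reads, against 0.860% and 7.10% of Piwi reads. In heterozygous ovaries the means were 25.58 nt for Aub and 26.25 nt for Piwi. Aub reads of each base class had a lower mean length than Piwi reads of the same class, from 25.27 nt for Aub reads with neither 1U nor 10A, against 26.28 nt in Piwi, up to 25.60 nt for Aub reads with both, against 26.44 nt in Piwi. Without the rRNA and tRNA families the mutant means were 25.47 nt for Aub and 26.33 nt for Piwi. Reads with neither 1U nor 10A then averaged 25.07 nt for Aub and 26.31 nt for Piwi.

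**Figure D1:**
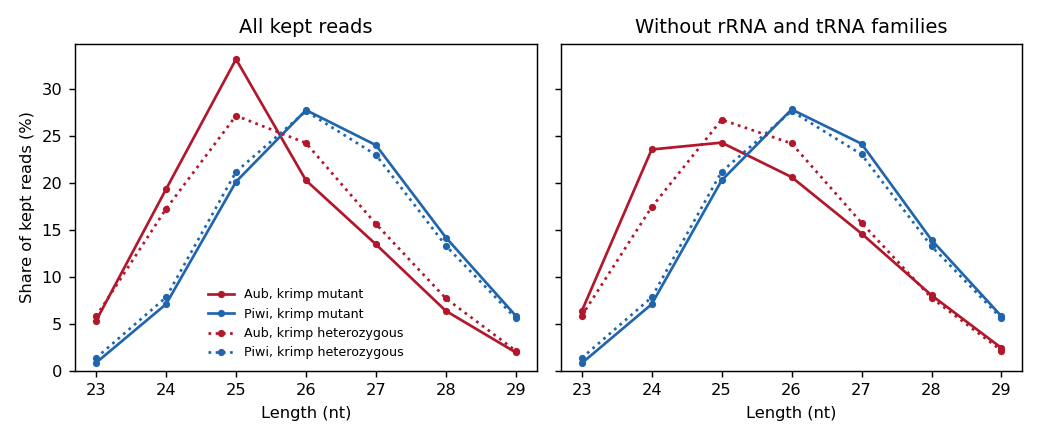
Share of kept reads (%) by length (nt), for all kept reads and without rRNA and tRNA families; lines join the values of single libraries. The Aub lines peak at 25 nt and the Piwi lines at 26 nt in krimp mutant and in heterozygous ovaries. The mutant Aub value at 25 nt is 33.2% of all kept reads. Without the rRNA and tRNA families it is 24.3%, close to the 23.6% at 24 nt.

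The same difference in length was seen at single 5′ ends, where the start of the RNA is the same and only its 3′ end can differ. With at least 1000 reads for each protein, 47 ends could be compared in the mutant. Aub reads had the lower mean length at 43 of them and the higher at 2, with a median difference of -0.74 nt (quartiles -1.24 and -0.32). The most abundant sequence was shorter for Aub at 20 ends, of the same length at 27 and longer at 0. The 14 of these ends that belong to rRNA or tRNA families had a median difference of -0.86 nt, and the 33 others -0.72 nt, so the shift was not limited to ends outside those families. Lengths with fewer than 100 reads at an end are not listed and are missing from its mean.

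In heterozygous ovaries 51 ends could be compared, of which 48 were shorter for Aub, with a median of -0.38 nt. Between the genotypes, ends of mutant Aub differed from those of heterozygous Aub by a median of -0.13 nt over 66 ends, with 50 shorter. For mutant against heterozygous Piwi the median was 0 nt over 1065 ends. These comparisons use different sets of ends.

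**Figure D2:**
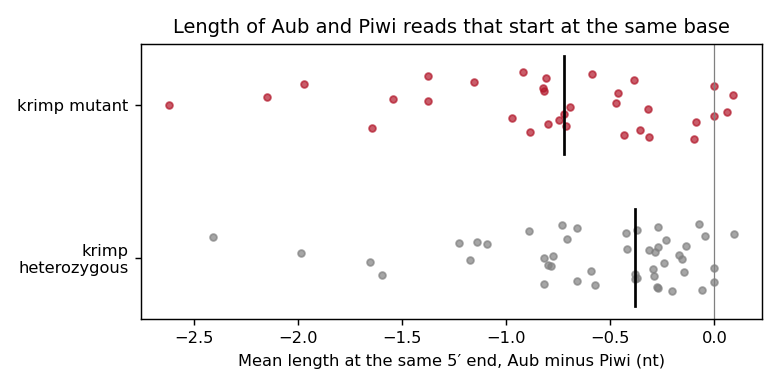
Difference in mean length (nt), Aub minus Piwi, at each 5′ end outside the rRNA and tRNA families with at least 1000 reads for both proteins; vertical bars are medians. The 33 ends of krimp mutant ovaries have a median of -0.72 nt and the 47 ends of heterozygous ovaries -0.38 nt, and nearly all points lie left of 0.

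Aub and Piwi had 626 5′ ends in common in the mutant. These were 36.9% of Aub ends (34.6 to 39.2) with 74.2% of Aub reads, and 2.88% of Piwi ends (2.67 to 3.12) with 8.61% of Piwi reads. Without the rRNA and tRNA families 583 ends were in common, which held 66.3% of Aub and 6.43% of Piwi reads. The Piwi list is the longer one and reaches lower, which favours matches to it. When the 1697 most abundant ends of each were compared, 155 were in common, or 9.13%. In heterozygous ovaries 965 ends were in common, which were 51.0% of Aub and 2.80% of Piwi ends. With equal numbers of ends the heterozygous share was 11.7%.

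Sharing was most frequent among the most abundant Aub ends. All of the 10 leading Aub ends were listed for Piwi, and 6 of these lay outside the rRNA and tRNA families. Of the next 40 Aub ends 33 were listed for Piwi, as were 53.3% of ranks 51 to 200 and 32.7% of ranks 1001 to 1697. The ranks include those families. Of the 10 leading Piwi ends 5 were listed for Aub, and those were rRNA or tRNA fragments. None of the other 5 was listed for Aub. Of ranks 201 to 500 in Piwi 12.3% were shared, and of ranks 5001 to 21706, 1.93%.

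In the mutant the shared ends lay between the others at positions 1 and 10. A at position 10 was found in 70.7% of the 1071 ends listed for Aub only (67.9 to 73.4), 313 of the 626 shared ends (46.0% to 54.0%) and 27.7% of the 21080 ends listed for Piwi only (27.1 to 28.3). U at position 1 was found in 56.2% of Aub-only, 70.8% of shared and 74.6% of Piwi-only ends. In heterozygous ovaries the 10A shares were 45.6% of Aub-only, 36.7% of shared and 27.3% of Piwi-only ends. The 1U shares there were 62.0% of Aub-only, 80.1% of shared and 77.6% of Piwi-only ends, so by position 1 the shared ends did not lie between the others.

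**Figure D3:**
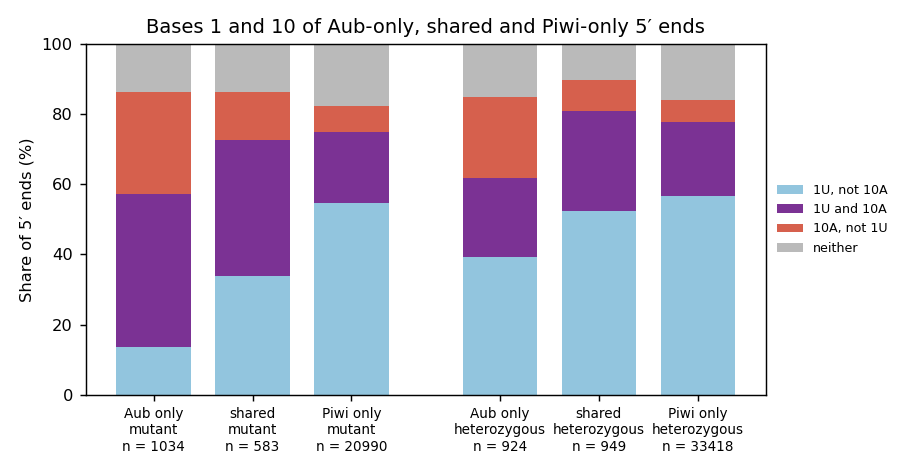
Share of 5′ ends (%) with 1U, 10A, both or neither among ends listed for Aub only, for both proteins and for Piwi only, without rRNA and tRNA families; n is the number of ends. In krimp mutant ovaries ends with 10A, with or without 1U, are 72.8% of Aub-only, 52.5% of shared and 27.7% of Piwi-only ends.

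The shared ends had no common order of abundance in the 2 proteins. The rank correlation of the Aub and Piwi shares over the 583 shared ends outside the rRNA and tRNA families was -0.06, given as a description, since the points come from the same pair of libraries and end at each library's read minimum. The Aub share was at least 2-fold higher at 62.4% of these ends and the Piwi share at 12.7%, but this count leans to Aub because the Aub list stops at the higher share. Over the 289 ends above 0.00417% in both libraries, the Aub share was at least 2-fold higher at 92 (31.8%) and the Piwi share at 74 (25.6%), with a median log2 ratio of Aub to Piwi of 0.00. The log2 ratios of these 289 ends ran from -4.56 to 8.56.

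Ends with both 1U and 10A stood higher in Aub under either count. Of the 93 such ends above 0.00417% in both libraries, 45 were at least 2-fold higher in Aub (48.4%) and 17 in Piwi (18.3%), and their median log2 ratio was 0.95. Of the 109 ends with 1U and without 10A, 26 were higher in Aub (23.9%) and 33 in Piwi (30.3%), with a median of -0.29. The 41 ends with 10A and without 1U had a median of -0.35, with 12 higher in each protein.

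**Figure D4:**
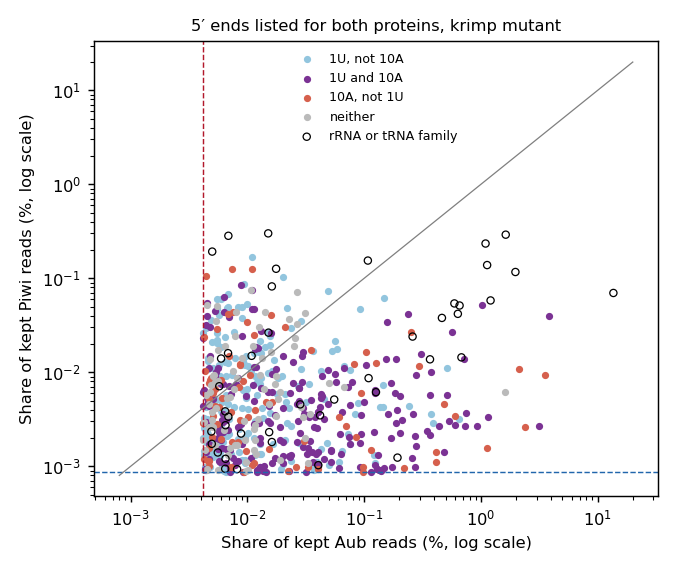
Share of kept Aub reads (%, log scale) and of kept Piwi reads (%, log scale) at the 626 5′ ends listed for both proteins in krimp mutant ovaries; dashed lines mark 100 reads and the diagonal marks equal shares. Points spread over the plane without a trend, and the most abundant Aub ends, up to 13.6% of reads, lie far below the diagonal.

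The leading ends show how far the contents differed. The most abundant Aub end was a 5S rRNA fragment beginning with G, with 327538 Aub reads and 8014 Piwi reads, or 13.6% and 0.0699% of kept reads, a 195-fold difference in share. The end ranked 2 in Aub, with 1U and 10A, had 91709 Aub reads and 4520 Piwi reads in the mutant, or 3.82% and 0.0394%. The end ranked 3 in Aub, with G at position 1 and 10A, had 85243 Aub reads and 1078 Piwi reads, a 378-fold difference in share. In heterozygous ovaries it made up 5.09% of kept AGO3 reads and 0.978% of kept Aub reads.

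The largest ratio among shared ends belonged to the end ranked 4 in Aub, with 1U and 10A. It had 75943 Aub reads and 305 Piwi reads, a 1189.8-fold difference in the share of kept reads, and in heterozygous ovaries 382 Aub reads and 116 Piwi reads. The end ranked 5, with G at position 1 and 10A, had 57216 Aub reads and 298 Piwi reads, 917-fold higher in share in Aub. At ends with so few Piwi reads, sequences under 100 reads are missing from the Piwi sum, so the ratio may be overstated. Of the 5 shared ends with the highest ratio of Aub to Piwi, 4 had 10A without 1U and began with G or C. That class made up 84 of the 626 shared ends (13.4%). Outside the rRNA and tRNA families, 80 shared ends were of this class. Their median log2 ratio was 1.62, with 47 at least 2-fold higher in Aub and 12 in Piwi. That count leans to Aub because the Aub list stops at the higher share. Of these ends 41 stood above the Aub minimum share in both libraries, with a median of -0.35 and 12 higher in each protein. Ends with few Piwi reads, such as the end ranked 5, are not among the 41.

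Some abundant Aub ends were not listed for Piwi. The end ranked 11 in Aub, with 1U and 10A, had 28257 Aub reads. Its most abundant sequence had 18245 of them, and since an unlisted sequence can hold at most 99 reads, that sequence was at least 881-fold higher in share in Aub. By the same bound the leading sequence of the end ranked 17, with G at position 1 and 10A, was at least 901-fold higher, and that of the end ranked 36, with C at position 1 and 10A, at least 414-fold higher. The bounds hold for single sequences, because an unlisted end could hold several of them. The end ranked 36 made up 3.42% of kept AGO3 reads in heterozygous ovaries and 0.435% of kept Aub reads there. These 3 ends, the most abundant that were not listed for Piwi, were picked after their values were seen.

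The leading Piwi ends outside the rRNA and tRNA families all began with U and none was listed for Aub. The end ranked 5 in Piwi, without 10A, had 23232 Piwi reads, and its leading sequence, with 8393 reads, was at least 17.7-fold higher in share in Piwi than in Aub. The end ranked 7, with 1U and 10A, had 22412 Piwi reads, and its leading sequence, with 21413 reads, was at least 45.3-fold higher. Among shared ends, the lowest ratio of Aub to Piwi was that of a 5S rRNA fragment with 1U and 10A, ranked 3 in Piwi, with 165 Aub reads and 32524 Piwi reads and a 41.3-fold higher share in Piwi. Outside those families the end ranked 36 in Piwi, with A at positions 1 and 10, had 107 Aub reads and 12072 Piwi reads, 23.6-fold higher in share in Piwi.

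Overlaps of 10 nt between 5′ ends on opposite strands, the mark of ping-pong, were most frequent within the Aub library. A partner is an end that starts with the reverse complement of the first 10 nt. Of the 1697 Aub ends 402 had a partner in Aub, or 23.7% (21.7 to 25.8). The background was the mean share with a match of 10 nt placed at overlaps of 11 to 20 nt, and it was 1.31%. It was not matched for base composition. Position 1 of a partner pairs with position 10, where A was at 63.1% of Aub ends. At positions 11 to 20 A was at 23.6% to 29.6% of Aub ends. Of Aub ends 13.8% had a partner in Piwi (12.2 to 15.5), over a background of 4.85% that ran from 4.18% to 6.42%. Of Piwi ends 0.944% had a partner in Aub (0.820 to 1.08), over 0.388%, and 4.12% had a partner in Piwi (3.86 to 4.39), over 3.68%.

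The background was high wherever the partner list was the long Piwi list. With the 1697 most abundant ends of each protein, 22 Aub ends (1.30%) had a partner in Piwi over a background of 0.289%, and 4 Piwi ends (0.236%) had a partner in Piwi over 0.194%. In heterozygous ovaries, with all ends, 10.8% of Aub ends had a partner in Piwi over 5.99%, and 12.7% had a partner in Aub over 0.349%. Mutant Aub ends had a partner among the ends of heterozygous AGO3 in 22.2% of cases, over 2.13%. Heterozygous Aub ends had one there in 35.4% of cases, over 1.54%. With the 1697 most abundant ends of each, these shares were 11.7% for mutant Aub and 17.7% for heterozygous Aub.

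**Figure D5:**
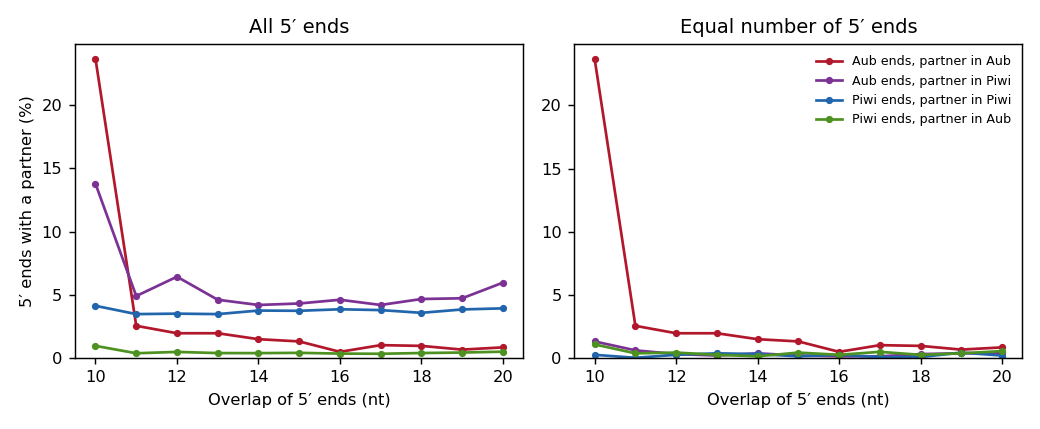
Share of 5′ ends (%) with a partner on the opposite strand against the overlap of the 5′ ends (nt), where each match is 10 nt long, for all ends and for the 1697 most abundant ends of each protein in krimp mutant ovaries. A peak at 10 nt stands out for Aub ends with partners in Aub (23.7%) and for Aub ends with partners in Piwi when all ends are used (13.8%), while Piwi ends with partners in Piwi are at 4.12% at 10 nt and at 3.46% to 3.92% at the other overlaps when all ends are used.

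The difference from background was larger against Piwi ends that Aub listed too. Against the 626 shared ends, 7.90% of Aub ends had a partner (6.66 to 9.28) over a background of 0.442%. Against the 21080 Piwi ends that Aub did not list, 7.07% had one (5.90 to 8.40) over 4.51%, with a highest background of 5.95%. In heterozygous ovaries the second value was 6.61% over 5.88%, inside its background range, which reached 7.24%. Piwi-only ends had a partner in Aub in 0.493% of cases (0.403 to 0.597) over 0.369%. These backgrounds too were not matched for base composition. A at position 10 was at 63.1% of mutant and 41.0% of heterozygous Aub ends. Whether 7.07% over 4.51% goes beyond what these bases give was not tested.

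The share of Aub ends with a Piwi partner differed between the base classes. Aub ends with 10A had a Piwi partner in 19.5% of cases where they also had 1U and in 20.1% where they did not, against backgrounds of 4.79% and 5.30%. Aub ends with 1U and without 10A had one in 5.22% of cases over 4.75%, and ends with neither in 1.52% over 4.49%. The classes are not independent of the measure, since a partner that begins with U requires A at position 10. The overlap joined 278 pairs of an Aub and a Piwi end. In 156 of them both ends began with U, in 93 only the Piwi end did, in 25 only the Aub end and in 4 neither. The Piwi end was also listed for Aub in 144 of the 278 pairs.

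In the pair with the largest product of shares, the Aub end ranked 17 (22441 Aub reads, G at position 1, 10A) faced the Piwi end ranked 734 (2375 Piwi reads, 1U). Neither end was listed for the other protein. That Piwi end had 153 reads with myc-Piwi in a somatic ovarian cell line and was not listed for heterozygous Aub or AGO3. At the background overlaps 4.51% of Aub ends matched a Piwi end that Aub did not list. Whether single pairs arose by ping-pong was not tested. In the next pair the Aub end ranked 11 (1U and 10A) faced the Piwi end ranked 1573 (1378 reads, 1U and 10A), and again neither was listed for the other. The third and the fifth pair were the same ends in exchanged roles. The end ranked 6 in Aub (C at position 1, 10A) had 50796 Aub and 1239 Piwi reads, and the end ranked 42 in Aub (1U) had 8908 Aub and 414 Piwi reads.

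Overlap in sequence was also counted without the need for the same start. The 583 ends in common, of 1617 Aub ends outside the rRNA and tRNA families, count here as overlap on the same strand. Of the 1034 other Aub ends, 305 (29.5%) had a Piwi end 1 to 5 nt away on the same strand. Outside the rRNA and tRNA families, 43.4% of Aub ends shared at least 18 nt with a Piwi sequence on the same strand only, 4.64% on the opposite strand only and 15.2% on both, while 36.7% shared none. Of Piwi ends 7.97% overlapped Aub on the same strand only, 1.71% on the opposite strand only and 0.552% on both, and 89.8% did not overlap. In heterozygous ovaries 22.4% of Aub ends and 87.2% of Piwi ends had no such overlap. The shares depend on the length of the list matched to.

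Other libraries place the ends. A cultured line of ovarian somatic cells (OSC), in which krimp was knocked down and myc-tagged Piwi was expressed, gave 745 Piwi-bound ends. Of these 0.671% were listed for mutant Aub (5 ends) and 51.5% for mutant Piwi (384 ends), and the 5 were all shared ends. The Piwi list is the longer one, and as shares of each list these were 0.295% of the Aub ends and 1.77% of the Piwi ends. The 5 include the 5.8S rRNA end ranked 7 in Aub, with 133 OSC reads. They also include a tRNA end ranked 15 in Aub, with 186 OSC reads. Of the 745 OSC ends 743 lay outside the rRNA and tRNA families. AGO3, which is not found in these somatic cells in the fly, served as the germline list. The heterozygous AGO3 library listed 50.4% of Aub-only, 42.5% of shared and 2.02% of Piwi-only ends.

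The heterozygous Piwi library listed 13.2% of Aub-only, 80.2% of shared and 58.7% of Piwi-only ends. The heterozygous Aub library listed 24.8% of Aub-only, 33.9% of shared and 1.23% of Piwi-only ends. Of the shared ends, 37.2% were listed in heterozygous ovaries for Piwi but for neither Aub nor AGO3, and 14.7% for none of the 3. Of the 6 leading Aub ends outside the rRNA and tRNA families, all 6 were listed for heterozygous AGO3, and 4 had a higher share of kept reads there than in heterozygous Aub. Of all 1697 mutant Aub ends 47.5% were listed for heterozygous AGO3. That list has 6286 ends, against 1891 for heterozygous Aub. The comparison of shares was not made for the other Aub ends.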

How the data were processed

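The authors deposited, for each library, distinct sequences of 20 to 30 nt with read counts, as whole numbers not normalized; the lowest count was 100. Per the labels' protocols, RNAs were gel-purified and TruSeq Small RNA libraries made. Reads refer to build dm3, per the submitters' processing notes, while aligner and trimmer were not given in the sources used here. Of 5380516 listed reads for mutant Aub 44.6% were kept, and of 15727063 for mutant Piwi 72.9%.

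Python 3.11.15 with numpy 2.4.6, scipy 1.17.1 and matplotlib 3.10.9 computed shares, ends and overlaps, which were checked on simulated data. With 1 library per group no test was run. The ends named were the 10 with most reads in each library, the 5 highest and 5 lowest share ratios among shared ends with at least 1000 reads in either, and the 5 overlapping pairs with the largest product of shares. The comparison and its lists were chosen with earlier results of these data known. The rRNA and tRNA families were chosen after the data were seen. Their starting ends written in reverse gave 0 matches, which does not test whether the families grew too far. Alternatives changed weighting, length window, 2S match, read minimum, leading ends, end length and list size.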

Additional observations from a re-analysis of the deposited data

How the results depend on the processing

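No paired analysis was possible because each group had 1 library. All 6 results kept their direction, where they have one, under all alternatives run; 28 of 50 alternative values moved by more than counting error, and the values of those are given here. For 1U, Aub minus Piwi was -29.6 percentage points, for 10A 32.2 and for mean length -0.89 nt. With each sequence counted once they were -12.7, 38.6 and -0.78 nt; at 20 to 30 nt -29.01, 31.5 and -0.97 nt; with at least 200 reads -32.4, 31.7 and -0.91 nt; without the 10 leading ends of each library -12.5, 41.6 and -0.88 nt; without rRNA and tRNA families -18.9, 52.4 and -0.85 nt. With a common minimum share, 1U was at -33.3 points and length at -0.91 nt. The share of Aub ends listed for Piwi was 74.2% weighted by reads, 28.8% with at least 200 reads, 15.8% with a common minimum share and 9.13% with equal numbers of ends. The share of Aub ends with a Piwi partner was 18.7%, 9.49%, 2.95% and 1.30% under these, and 7.07% when only partners not listed for Aub counted. Weighted by reads and without the rRNA and tRNA families it was 25.3%. The share of Piwi ends with an Aub partner moved with at least 200 reads, to 0.637%. Shares of ends thus depend on how far each list reaches; the causes of the other shifts were not tested. The rRNA and tRNA removal, alone or with weighting by reads, and the limit on partners were added after seeing the data.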

Other observations

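Bases other than those at positions 1 and 10 also differed between the mutant libraries. By 5′ ends, U at position 3 was at 21.7% for Aub and 33.9% for Piwi, and A at position 7 at 36.8% for Aub and 27.8% for Piwi. At position 10 it was mainly U that was lower in Aub ends, at 10.1%, against 28.6% of Piwi ends.

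Ends a few nucleotides apart on the same strand were common in both libraries. Outside the rRNA and tRNA families, with 1617 ends of each, 37.2% of Aub ends and 48.5% of Piwi ends had another end of the same library within 5 nt in krimp mutant ovaries. In heterozygous ovaries the values, with the same number of ends, were 17.7% for Aub and 41.6% for Piwi. The Aub value was thus higher in the mutant than in the heterozygote by a wider margin than the Piwi value, and this difference was not tested.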
